A study of Mus musculus with 10 samples.

Results

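Lef1, Satb1, Runx1, Runx3, Ikzf1, Ikzf3, Ikzf5, Bcl11a and Mef2c encode DNA-binding proteins that shape the transcription of lymphocytes. All probe sets assigned to these 9 genes, or to a synonym of them, were taken from the platform annotation of the array. That gave 34 probe sets of the 45037 on the array that are not controls, and 9 genes of the 18193 that have a probe set of their own. Lef1 and Satb1 were picked on their strong fall in the comparison described here, so their values are given as a description and without a test. The other 7 genes were listed as lymphoid transcription factors, and their tests are given.

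The samples were splenic B cells from C57BL/6 littermates of 12 weeks. Per the labels, 5 samples were of the genotype Irf4+/+ and 5 of the genotype Irf4-/-, with the kind of disruption not described, and no other allele or agent separated the groups. Non-B cells had been removed from spleen cells with magnetic beads, and every sample was then cultured for 3 days under stimulation by a CD40 antibody plus 20 ng/ml of IL-4. The labels do not state whether samples of the same genotype are different mice or different cultures, so every p-value reflects only the spread among these arrays, and that spread may be technical. Irf4, an interferon regulatory factor, is induced in activated B cells, and the design asks which transcripts differ when it is missing.

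Lef1 belongs to the TCF/LEF family, which binds DNA without activating on its own and recruits either beta-catenin, the transcriptional arm of Wnt signalling, or corepressors of the Groucho/TLE family. Satb1 organises chromatin by binding AT-rich sequence and is best known from developing T cells. Runx proteins bind DNA together with their partner Cbfb. Ikaros family proteins are zinc-finger factors that work largely through histone deacetylase and chromatin remodelling complexes. Bcl11a and Mef2c are both needed for normal B cell development.

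Each probe set has 1 signal per array, a linear brightness that the authors computed and scaled. Differences are Irf4-/- minus Irf4+/+ on the scale log2(signal + 7.9), and a probe set was tested where its mean over the 10 arrays was at least 25.1. A probe set is called at an adjusted p under 0.05 in a linear model over all 27024 tested probe sets, and a gene is called through its brightest tested probe set. Folds are taken from these log2 differences, so they can be smaller than the ratios of the mean signals. The background was high: of the tested probe sets 20.5% were higher and 19.4% were lower in Irf4-/- samples by this rule, and for 29.7% the groups did not overlap. By gene, 22.7% of 12251 were called higher and 23.3% lower. With each array centred on its median the calls were 4468 probe sets higher and 6457 lower, in place of 5535 and 5245.

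Array medians lay between 37.2 and 42.7 in Irf4+/+ and between 39.9 and 45.0 in Irf4-/- samples. Of the 7 tested B cell markers all 7 were higher in Irf4-/- samples, with a median log2 difference of 0.74, although Ighm was at -0.10 when its probe sets were averaged. Natural killer cell markers were higher too, in 9 of 9, and their summed signal was 1283 to 1556 in Irf4+/+ and 11551 to 16032 in Irf4-/- samples. With shared probe sets (suffix _a_at, _s_at or _x_at) left out Prf1 went from 2.30 to 0.41 and was not called (adjusted p = 0.221). Of 7 tested macrophage markers 4 were higher, with summed signals of 433.4 to 504.4 and 1511 to 1879. Each sum in this paragraph takes the brightest probe set of every listed marker on the array, also of those too dim to test. Of 5 tested T cell markers 3 were higher and 1 lower, with sums of 1161 to 1611 and 4779 to 5908, mostly Thy1, while Cd3d, Cd3e, Cd3g, Cd4 and Cd8b1, with Cd247, were too dim to test. Of 3 tested plasmacytoid dendritic cell markers, Pacsin1 was higher (1.19, adjusted p = 1.70e-07) and Tcf4 lower (-0.24, adjusted p = 0.00866), with sums of 1369 to 1703 and 1632 to 1806, and Siglech and Ccr9 were too dim. The 18S ribosomal RNA control read 69.0 ± 20.2 and 207.1 ± 66.1 (SD, n = 5). The part of that control and of these other cell markers in the results was not tested. In such bulk samples fewer cells of a kind and less RNA per cell cannot be told apart. Irf4 itself was at 3761 ± 211 and 2792 ± 128 on its brighter probe set (SD, n = 5), and where that probe set lies in relation to the disrupted part was not analysed here.

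Lef1 signal in Irf4-/- samples was a small remnant of that in Irf4+/+ samples on both of its probe sets. On the brighter one (1454734_at) the Irf4+/+ arrays read 1757.1, 1867.7, 1681.6, 1741.1 and 1759.0, and the Irf4-/- arrays 150.3, 148.4, 121.5, 160.7 and 91.5. The groups were far apart, with the highest Irf4-/- array below the lowest Irf4+/+ array by a wide margin. The means were 1761 ± 67.3 and 134 ± 28.1 (SD, n = 5), so that 7.64% of the Irf4+/+ signal was left, and the log2 difference was -3.66 (SE 0.116, 95% interval -3.91 to -3.41), or 12.6-fold lower. Among 12251 genes 6 had a more negative difference. The SD of its log2 values was 0.31 among Irf4-/- arrays against 0.05 among Irf4+/+ arrays. On the signal scale the order was the reverse, 28.1 against 67.3, so a greater spread of Lef1 in Irf4-/- samples is not claimed.

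The second Lef1 probe set (1421299_a_at) showed the same picture at a lower signal. It read 484.1, 452.6, 532.8, 476.0 and 577.9 in Irf4+/+ and 52.3, 53.8, 33.1, 18.8 and 22.8 in Irf4-/- arrays. The means of 504.7 ± 50.3 and 36.2 ± 16.3 differed by -3.62 on the log2 scale (SE 0.201), 12.3-fold. Because the Irf4-/- signals are dim, the size depends on the pseudocount: it was -3.88 with a pseudocount of 1 and -3.13 with one of 26.1. The brighter probe set moved less, from -3.73 to -3.50 with the same pseudocounts.

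Satb1 was lower on all 5 of its probe sets. The brightest (1416007_at) read 4571.1, 5190.5, 4432.8, 4549.6 and 4897.3 in Irf4+/+ arrays and 955.9, 848.9, 1014.7, 941.2 and 979.6 in Irf4-/- arrays. Both groups were tight and did not overlap. The means were 4728 ± 311 and 948 ± 62.0 (SD, n = 5), 20.1% of the Irf4+/+ signal, with a log2 difference of -2.31 (SE 0.0625), or 4.95-fold lower. A more negative difference was found for 27 genes, 0.22% of those tested.

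The other Satb1 probe sets ranged from 3.62-fold to 6.68-fold lower. The next brightest (1416008_at) went from 3693 ± 132 to 840.2 ± 51.8, a log2 difference of -2.13 (SE 0.0569). Another, 1436182_at, read 975.9, 932.5, 922.0, 928.0 and 781.7 against 106.2, 117.9, 133.8, 146.6 and 144.4, a difference of -2.74 (SE 0.0962). These 3 probe sets all had Irf4-/- means well above the dim range, so the sizes of their differences depend little on the pseudocount. The remaining 2, 1439449_at and 1439315_at, had Irf4-/- means of 33.5 and 17.9 and log2 differences of -2.27 and -1.85. Their Irf4-/- signals are dim, and with pseudocounts of 1 and 26.1 the latter became -2.27 and -1.31.

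**Figure D1:**
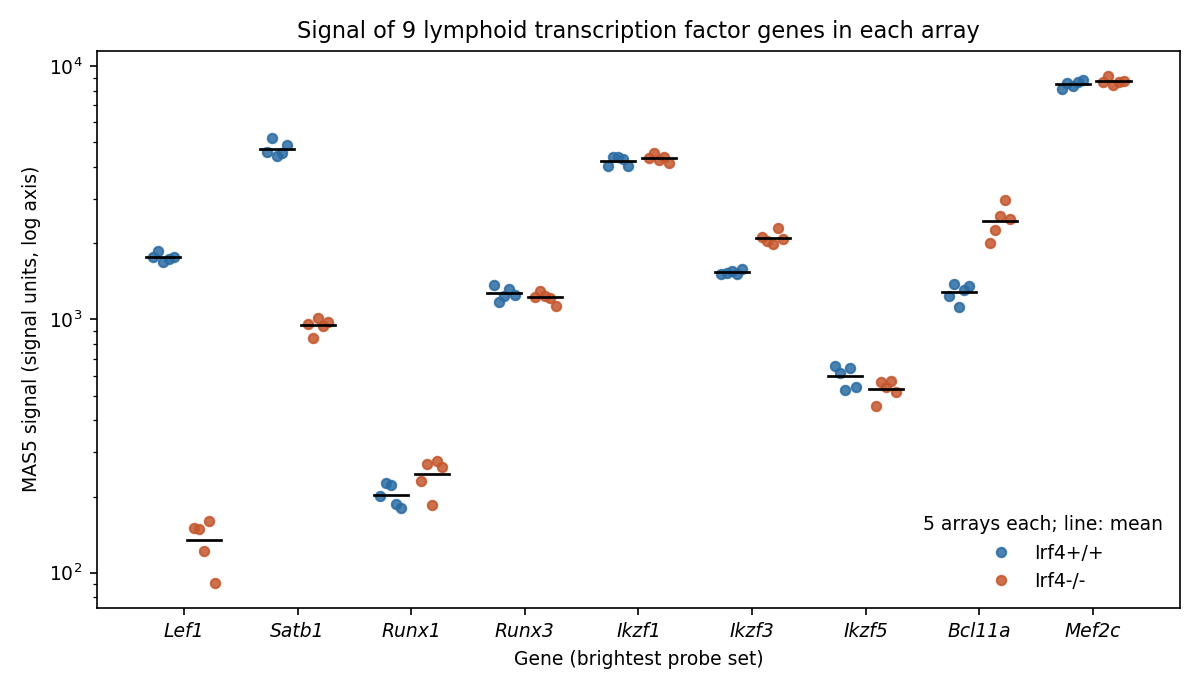
Signal of the brightest probe set of each of the 9 genes, on a log axis, with 1 dot per array (5 Irf4+/+ and 5 Irf4-/-) and a line at the mean of each genotype. Lef1 drops from 1761 to 134 and Satb1 from 4728 to 948, Bcl11a and Ikzf3 are higher in every Irf4-/- array, and the dots of Runx1, Runx3, Ikzf1, Ikzf5 and Mef2c overlap between genotypes.

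A few genes had array profiles close to these, as measured by the root mean square difference between profiles over the 10 arrays, each profile being log2 values minus its Irf4+/+ mean. Nearest to Lef1 was Scin, which encodes the actin-severing protein scinderin, at a distance of 0.21, with mean signals of 482 and 36.4. Hacd1, an enzyme of very-long-chain fatty acid synthesis, followed at 0.30 and Neil1, a DNA repair glycosylase, at 0.31. Nearest to Satb1 were St3gal6, a sialyltransferase, at 0.14, Ckap4, a membrane protein of the endoplasmic reticulum, at 0.18 and Rpgrip1 at 0.20. Lef1 and Satb1 were 0.98 apart, so neither was among the genes nearest to the other. Such a distance is small mainly for genes whose genotype difference is of like size. The log2 differences were -3.48 for Scin, -3.51 for Hacd1 and -3.38 for Neil1. They were -2.20 for St3gal6, -2.14 for Ckap4 and -2.51 for Rpgrip1. Nearness therefore does not show that these genes vary together among arrays of the same genotype.

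The promoter sequences show what lies just upstream of the 2 genes with the strongest differences and of Bcl11a, which differs in the opposite direction. They were taken from RefSeq (GRCm38.p6), which held 20 promoters for 8 of the 9 genes in the table used, with Ikzf3 not among them. Capitals mark GAAA, the core half-site that interferon regulatory factors bind, on either strand (TTTC is the same half-site on the opposite strand). The half-site and the stretches were chosen after matches had been seen. The Lef1 window is chr3:131110047-131110296 on the plus strand, the Satb1 window chr17:51833291-51833540 on the minus strand and the Bcl11a window chr11:24080445-24080694 on the plus strand, each the 250 bases before a transcription start.
Lef1 promoter 1: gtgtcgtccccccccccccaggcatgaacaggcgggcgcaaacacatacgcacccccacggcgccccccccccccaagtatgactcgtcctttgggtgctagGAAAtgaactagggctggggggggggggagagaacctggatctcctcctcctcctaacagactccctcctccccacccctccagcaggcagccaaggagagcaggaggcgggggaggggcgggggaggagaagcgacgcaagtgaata
Satb1 promoter 1: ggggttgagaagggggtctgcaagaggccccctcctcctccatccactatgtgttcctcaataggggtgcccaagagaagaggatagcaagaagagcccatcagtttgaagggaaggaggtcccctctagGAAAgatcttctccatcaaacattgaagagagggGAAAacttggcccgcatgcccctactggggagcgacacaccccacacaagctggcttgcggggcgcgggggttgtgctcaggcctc
Bcl11a promoter: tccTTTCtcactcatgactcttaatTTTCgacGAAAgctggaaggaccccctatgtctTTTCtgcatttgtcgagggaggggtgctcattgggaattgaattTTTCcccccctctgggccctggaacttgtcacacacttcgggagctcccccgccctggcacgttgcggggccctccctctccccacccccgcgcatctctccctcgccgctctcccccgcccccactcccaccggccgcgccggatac

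The Lef1 window holds 1 half-site, which begins 148 bases before the start. The Satb1 window holds 2 and the Bcl11a window 5. Among all 32851 promoters, 86.4% hold at least 1 in the same window, with a median of 2. The counts in these Lef1 and Satb1 windows thus do not set the windows apart. Lef1 and Satb1 have further promoters among the 20, and the half-sites of those are not given here. How often a window holds 5, as that of Bcl11a does, was not counted. The longer Ets-IRF composite element, GGAA and GAAA separated by 2 bases, was in 0 of the 20 promoters of these genes, searched on both strands from 250 bases before to 50 after the start, and in 2.72% of all promoters. The interferon-stimulated response element, GAAA and GAAA separated by 2 bases, was in 0 of 20 and in 3.44% of all. A missing match says only that these letters are not in this window.

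The sites of the factors themselves were searched in the same way. The TCF/LEF core CTTTGA was in 3 of the 20 promoters (15.0%, against 16.0% of all promoters), the Runx core TGTGGT in 2 (10.0% against 16.8%), the Ikaros core TGGGAA in 7 (35.0% against 25.6%), and the Mef2 element, CTA and TAG separated by 4 bases, in 0 (against 3.69%). Promoters of a gene are not independent. The 7 with an Ikaros core belong to 4 genes, and the windows of Lef1 promoters 1 and 2 overlap and share the same match. Stretches from a Lef1 and a Runx3 promoter are shown because each holds a pair of cores of its own family, in capitals and here on the opposite strand. The first is chr3:131156104-131156203 and the second chr4:135120485-135120544, both on the plus strand.
Lef1 promoter 4: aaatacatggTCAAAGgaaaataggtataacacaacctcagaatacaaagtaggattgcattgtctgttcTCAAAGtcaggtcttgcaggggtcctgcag
Runx3 promoter 1: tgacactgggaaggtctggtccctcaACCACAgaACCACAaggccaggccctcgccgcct

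In the Lef1 stretch the 2 TCF/LEF cores begin 180 and 120 bases before the start, and in the Runx3 stretch the 2 Runx cores begin 134 and 126 bases before it. Runx1 promoter 1 also holds a pair of Runx cores, past the start, and is not shown. These are matches to letters, and binding was not measured.

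Among the 7 genes that were not picked for a fall, 26 of 27 probe sets were bright enough to test. Of these, 12 were called higher in Irf4-/- samples (46.2%, against a background of 20.5%), 0 lower and 14 not called, and for 7 of 26 (26.9%, against 29.7%) the groups did not overlap. Their median log2 difference was 0.19, where the median over all tested probe sets was 0.018, and 22 were above 0. Probe sets of a gene are not independent, and 6 of the 12 calls were Bcl11a. By gene, Ikzf3 and Bcl11a were called higher, 2 of 7 (28.6%, against 22.7%), and 0 lower. With each array centred on its median 9 probe sets were called higher and 1 lower, the latter the brightest of Ikzf5.

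**Figure D2:**
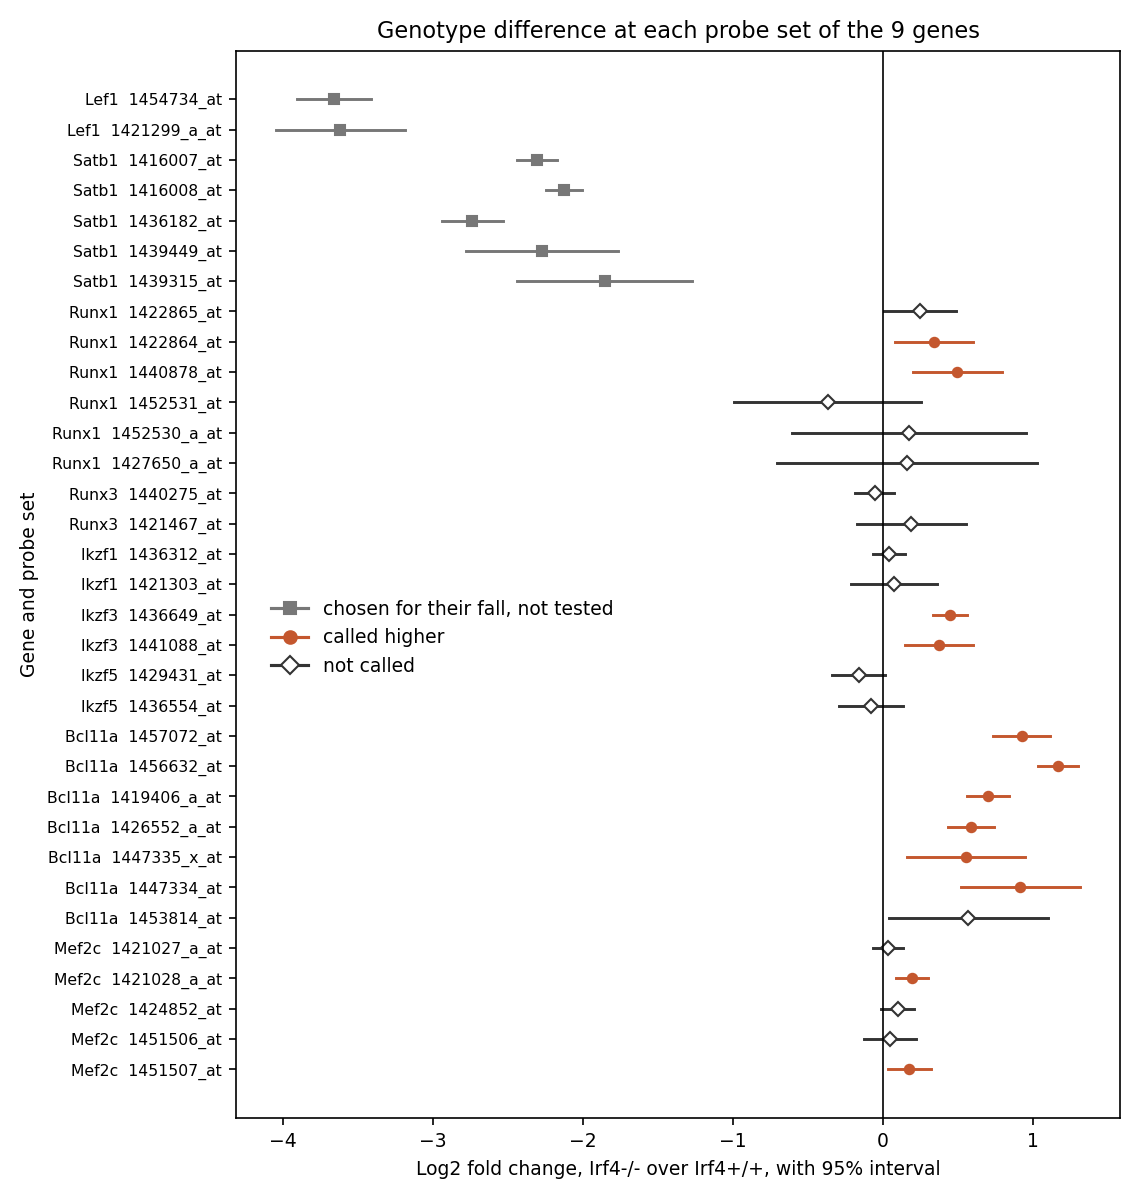
Log2 difference, Irf4-/- minus Irf4+/+, with its 95% interval for the 33 probe sets that were bright enough, grouped by gene. Grey squares are the 7 probe sets of Lef1 and Satb1, which are not tested, orange points are the 12 called higher, and open diamonds the 14 not called.

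The Runx genes had small differences. Runx3, which shapes cytotoxic and other lymphocytes, read 1374.6, 1172.8, 1241.7, 1323.9 and 1247.6 in Irf4+/+ and 1231.2, 1292.5, 1239.7, 1219.8 and 1129.9 in Irf4-/- arrays on its brighter probe set (1440275_at). These values interleave, and the log2 difference was -0.06 (SE 0.0607, 95% interval -0.18 to 0.07, adjusted p = 0.509). The dimmer one (1421467_at) gave a difference of 0.19 (SE 0.170, adjusted p = 0.418).

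Runx1, a regulator of blood cell formation, was called higher on 2 of its 6 probe sets, against 20.5% of all tested probe sets. On all 6 the groups overlapped, where 29.7% of all tested did not overlap. Its brightest probe set (1422865_at) read 201.6, 225.2, 222.6, 186.6 and 180.3 in Irf4+/+ and 231.1, 269.6, 184.4, 275.6 and 261.5 in Irf4-/- arrays. All but 1 of the Irf4-/- arrays lay above the Irf4+/+ range. The difference was 0.25 (SE 0.114, 95% interval 0.01 to 0.49, adjusted p = 0.0979), and without Irf4-/- replicate 3, the low array, it was 0.34 and called (adjusted p = 0.0150).

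The call on 1440878_at was kept in every alternative run. It read 79.4, 71.6, 94.4, 83.2 and 104.7 against 102.7, 142.3, 137.8, 106.8 and 138.6, a log2 difference of 0.50 (SE 0.139, adjusted p = 0.00872). The other called Runx1 probe set, 1422864_at, had a difference of 0.34 (SE 0.122, adjusted p = 0.0349), and that call was lost in 11 of 20 alternatives, among them those without Irf4+/+ replicate 3, 4 or 5 or Irf4-/- replicate 1, 2, 3 or 4 (adjusted p = 0.0501 to 0.0979). The 3 dimmest had differences of -0.37, 0.18 and 0.16 with SEs of 0.294 to 0.410, so these differences were within about their own error. The Runx3 difference minus the Runx1 difference was -0.30 (SE 0.143, exact permutation p = 0.0635, adjusted p = 0.0635 over 4 pairs). Without Irf4+/+ replicate 2 it was -0.37 and without Irf4-/- replicate 3 it was -0.40 (exact permutation, adjusted p = 0.0423 for both).

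In the Ikaros family, Ikzf3 stood out from Ikzf1 and Ikzf5. Ikzf3 (Aiolos), which is induced as B cells mature, read 1511.7, 1533.0, 1560.4, 1509.7 and 1578.5 in Irf4+/+ arrays and 2110.6, 2044.0, 1978.7, 2290.7 and 2084.6 in Irf4-/- arrays (1436649_at). All 5 Irf4-/- arrays lay above all Irf4+/+ arrays. The means were 1539 ± 30.2 and 2102 ± 117 (SD, n = 5), 1.36-fold higher, with a log2 difference of 0.45 (SE 0.0537, 95% interval 0.33 to 0.56, adjusted p = 4.17e-06). A second probe set, 1441088_at, was called as well, at 0.37 (SE 0.108, adjusted p = 0.0106), with 4 of 5 Irf4-/- arrays above all Irf4+/+ arrays. The third, 1453378_at, was too dim to test at 13.5 and 16.7.

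Ikzf1 (Ikaros), the founding member of the family, read 4020.1, 4393.7, 4364.0, 4304.9 and 4024.9 in Irf4+/+ and 4358.6, 4537.9, 4271.7, 4394.9 and 4130.8 in Irf4-/- arrays (1436312_at). The ranges overlap, with 2 of 5 Irf4-/- arrays above all Irf4+/+ arrays. The difference was 0.04 (SE 0.0506, 95% interval -0.07 to 0.15, adjusted p = 0.579), and it lay between -0.03 and 0.06 over the alternatives, so no direction is given. The dimmer probe set, 1421303_at, gave 0.07 (adjusted p = 0.716).

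Ikzf5 (Pegasus), a more distant family member, had a difference of -0.16 (SE 0.0842, 95% interval -0.34 to 0.02, adjusted p = 0.144) on 1429431_at. Its arrays read 654.2, 615.0, 524.9, 644.8 and 540.2 against 456.2, 567.3, 542.7, 571.5 and 518.6. The groups overlap, and under median centring the difference was -0.24 and called (adjusted p = 0.0343). The dimmer 1436554_at gave 314 ± 19.3 and 299.8 ± 50.1 (SD, n = 5; difference -0.08, adjusted p = 0.589).

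The difference of Ikzf3 exceeded that of Ikzf1 by 0.41 (SE 0.0503, exact permutation p = 0.00794, adjusted p = 0.0159), in 5 of 5 Irf4-/- arrays. The difference of Ikzf5 was below that of Ikzf3 by a signed -0.61 (SE 0.1000, exact permutation p = 0.00794, adjusted p = 0.0159), also in 5 of 5. The p of 0.00794 is the smallest that 5 against 5 arrays can give. Between Ikzf5 and Ikzf1 the gap was -0.20 (SE 0.0915, exact permutation p = 0.0635, adjusted p = 0.0635), and without Irf4+/+ replicate 3 it was -0.26 (exact permutation, adjusted p = 0.0212). All 4 tests are two-sided.

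Bcl11a, a zinc-finger repressor, was called higher in Irf4-/- samples on 6 of its 7 probe sets, against 20.5% of all tested probe sets. On 5 of its 7 the groups did not overlap, against 29.7% of all tested. The brightest (1457072_at) read 1238.4, 1384.0, 1121.8, 1308.9 and 1350.1 in Irf4+/+ arrays and 1998.6, 2266.2, 2561.2, 2958.7 and 2487.2 in Irf4-/- arrays. Every Irf4-/- array was above every Irf4+/+ array, and the Irf4-/- arrays were the more spread. The means of 1281 ± 104 and 2454 ± 357 (SD, n = 5) had a log2 difference of 0.93 (SE 0.0897, 95% interval 0.74 to 1.12, adjusted p = 3.51e-07). Still, 750 genes (6.12% of those tested) had a larger positive difference.

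The probe sets of Bcl11a differed in size of change. The probe set 1456632_at read 950.4, 893.7, 874.2, 767.9 and 878.6 against 1882.8, 1951.6, 1927.6, 1951.7 and 2112.5, which is 2.24-fold higher (log2 difference 1.17, SE 0.0633, adjusted p = 3.21e-10). The probe set 1419406_a_at, at 1016 ± 98.4 and 1650 ± 48.0 (SD, n = 5), was 1.62-fold higher (0.70, SE 0.0666, adjusted p = 2.84e-07), and 1426552_a_at, at 236 ± 8.64 and 358 ± 16.9, was higher by 0.59 (SE 0.0736, adjusted p = 6.47e-06). Taken array by array, log2 of 1456632_at minus log2 of 1419406_a_at was -0.36 to -0.07 in Irf4+/+ and 0.21 to 0.31 in Irf4-/- samples, with no overlap. Against 1426552_a_at it was 1.71 to 2.01 and 2.38 to 2.45, again with no overlap. These were the only 2 of 21 pairs of Bcl11a probe sets whose differences did not overlap, and they were singled out after the values were seen and not tested.

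The dimmer Bcl11a probe sets had positive differences too. The probe set 1447334_at read 37.0, 63.3, 77.9, 80.9 and 76.9 against 153.8, 159.0, 119.2, 109.9 and 114.9, a difference of 0.92 (adjusted p = 0.000765) with no overlap. The call on 1447335_x_at, at 0.55 (adjusted p = 0.0250), was lost in 5 of 19 alternatives, 4 of them without Irf4+/+ replicate 1 or 2 or Irf4-/- replicate 2 or 5 (adjusted p = 0.0610 to 0.0738). The dimmest, 1453814_at, gave 28.3 ± 8.52 and 45.9 ± 13.4 (SD, n = 5; 0.57, adjusted p = 0.0831), and without Irf4-/- replicate 1 it was called at 0.69 (adjusted p = 0.0428).

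**Figure D3:**
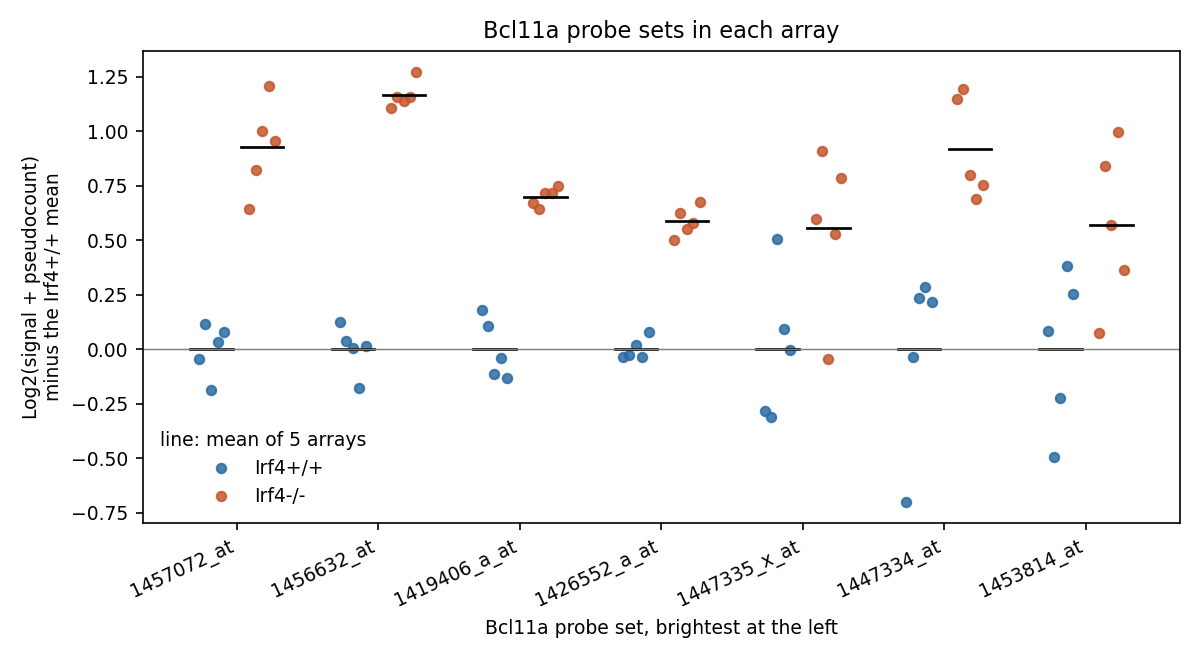
Log2 signal of each of the 7 Bcl11a probe sets minus its Irf4+/+ mean, with 1 dot per array and genotype. The Irf4-/- dots lie highest for 1456632_at, at a mean difference of 1.17. On 5 of the 7 probe sets they do not overlap the Irf4+/+ dots, against 29.7% of all tested probe sets.

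Mef2c, a MADS-box factor that B cells use downstream of receptor signals, was bright on all 5 probe sets and had small differences. The brightest (1421027_a_at) read 8150.3, 8616.6, 8324.7, 8626.7 and 8817.0 in Irf4+/+ and 8694.3, 9145.4, 8397.3, 8684.1 and 8710.5 in Irf4-/- arrays. The groups overlap, with a difference of 0.04 (SE 0.0470, 95% interval -0.06 to 0.14, adjusted p = 0.583). The next, 1421028_a_at, read 6743.6, 7526.1, 6824.3, 7280.6 and 7242.2 against 7919.6, 8565.0, 8228.7, 8023.0 and 8040.7 and did not overlap. Its difference was small at 0.20 (SE 0.0497, adjusted p = 0.00451, 1.15-fold higher), and under median centring it was 0.12 and not called (adjusted p = 0.0978). The call on 1451507_at, at 0.17 (SE 0.0673, adjusted p = 0.0491), was lost in 14 of 20 alternatives. Among these were the fits without Irf4+/+ replicate 1, 3, 4 or 5 or Irf4-/- replicate 3, 4 or 5, and without Irf4+/+ replicate 3 the difference was 0.13 (adjusted p = 0.136). The other 2, 1424852_at and 1451506_at, had differences of 0.10 and 0.05 (adjusted p = 0.153 and 0.687).

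Relatives of these factors were taken from a list, and of the 9 examined 7 were bright enough to test. By gene 1 was called higher, 3 lower and 3 not (14.3% and 42.9%, against 22.7% and 23.3% of all genes), with a median difference of -0.02, where the median over all tested genes was 0.0043. With shared probe sets left out 1 was called lower, and Mef2b and Cbfb then had no probe set to test. Tcf7l1, a relative of Lef1, was higher at 0.40 (113 ± 5.94 and 153 ± 21.6; SD, n = 5; adjusted p = 0.0101), while Tcf7l2 had 0.48 with a wide error (SE 0.251, adjusted p = 0.147) and was called at 0.64 without Irf4-/- replicate 2 (adjusted p = 0.0476). Mef2b was lower at -0.72 (155 ± 14.3 and 91.9 ± 19.3; adjusted p = 0.00047), and Mef2a at -0.33 (2746 ± 262 and 2182 ± 216; adjusted p = 0.00274). Mef2d gave 0.17 (adjusted p = 0.0846). With the mean of its probe sets Mef2a was at -0.21 and not called (adjusted p = 0.0692). Cbfb, the Runx partner, was 3381 ± 142 and 3083 ± 73.9 (SD, n = 5; difference -0.13, adjusted p = 0.0436), a call that 10 alternatives lost, among them those without Irf4+/+ replicate 1, 2 or 4 or Irf4-/- replicate 1, 2, 3 or 5 (adjusted p = 0.0639 to 0.102). Ikzf4 gave -0.02 (adjusted p = 0.961). Ikzf2 and Bcl11b were too dim, and Tcf7 and Runx2 were not analysed here.

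Genes that act with Lef1 were examined in 2 lists. Of 29 tested genes of beta-catenin signalling and TCF/LEF cofactors, 9 were called higher, 2 lower and 18 not (31.0% and 6.90%, against 22.7% and 23.3% of all genes), with a median difference of 0.10. Under median centring 4 were called lower. Tle1, a Groucho corepressor, fell from 594 ± 78.5 to 167 ± 5.15 (SD, n = 5; difference -1.77, adjusted p = 1.74e-10). Its relatives in the list did not fall with it: Tle2 (1.08, adjusted p = 0.000812), Tle3 (0.59, adjusted p = 0.0001) and Tle5 (0.59, adjusted p = 0.00345) were called higher. Tle4 (-0.22, adjusted p = 0.0855) and Tle6 (0.20, adjusted p = 0.550) were not called. Tle2, Tle4, Tle5 and Tle6 are named after their values were seen. The Wnt receptor Fzd6 rose from 37.9 ± 10.6 to 123.6 ± 13.4 (1.55, adjusted p = 1.79e-06), the beta-catenin coactivator Bcl9 from 386 ± 27.6 to 609.5 ± 65.0 (0.64, adjusted p = 1.03e-05), and the acetyltransferase Crebbp from 1314 ± 122 to 1845 ± 56.8 (0.49, adjusted p = 1.49e-05). Beta-catenin itself, Ctnnb1, had a difference of 0.07 (adjusted p = 0.318) and is named here after its value was seen.

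Of 13 common targets of beta-catenin and TCF/LEF, 9 were tested, with 0 called higher, 2 lower and 7 not and a median of 0.0098. The share called lower, 22.2%, is near the 23.3% of all genes, and the share of all genes called higher was 22.7%. With shared probe sets left out 1 was called lower, and Myc then had no probe set to test. With probe sets averaged 1 was called higher. The 2 called lower were Myc, from 2637 ± 88.7 to 1205 ± 93.6 (SD, n = 5; difference -1.13, adjusted p = 2.37e-10), and Znrf3, a ubiquitin ligase that removes Wnt receptors, from 135 ± 14.7 to 54.7 ± 9.46 (-1.19, adjusted p = 3.83e-06). The classical reporters Axin2, Sp5 and Dkk1 were too dim to test.

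Partners of Ikaros proteins from the NuRD, Sin3 and CtBP complexes were all tested, 17 genes, with 3 called higher, 4 lower and 10 not (17.6% and 23.5%, near the 22.7% and 23.3% of all genes) and a median of -0.05. The number higher was 1 without the mean-variance trend and 5 with shared probe sets left out. Mbd2, a methyl-DNA-binding subunit, fell from 2342 ± 97.6 to 1302 ± 63.1 (SD, n = 5; difference -0.84, adjusted p = 2.94e-09). The deacetylase Hdac2 was lower at -0.41 (adjusted p = 1.33e-05) and the histone-binding subunit Rbbp7 at -0.35 (adjusted p = 1.97e-05). Of the 2 other tested Hdac2 probe sets only 1 had the same sign. Over the alternatives the Hdac2 difference ran from -0.48 to -0.23. The remodelling ATPase Chd3 rose from 418 ± 68.6 to 694 ± 87.1 (0.73, adjusted p = 4.29e-05). Its paralogue Chd4, named after its value was seen, had 0.14 (adjusted p = 0.0673).

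Of 13 tested Runx partners, 5 were called higher, 3 lower and 5 not (38.5% and 23.1%, against 22.7% and 23.3% of all genes), with a median of 0.09. Under median centring 3 were called higher. Besides Tle1, the transcriptional coactivator Yap1 fell from 232 ± 21.2 to 64.0 ± 14.6 (SD, n = 5; difference -1.76, adjusted p = 3.18e-08). The methyltransferase Kmt2a rose from 658 ± 73.6 to 1061 ± 54.8 (0.69, adjusted p = 2.37e-06), and Tle3, another Groucho corepressor, from 288 ± 29.8 to 439 ± 53.6 (0.59, adjusted p = 0.0001). Tle1 and Tle3 thus moved in opposite directions.

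Regulators of Mef2 were called higher in 6 of 15, lower in 1 and not in 8 (40% and 6.67%, against 22.7% and 23.3% of all genes), with a median of 0.14. The calcium/calmodulin-dependent kinase Camk1d rose from 209 ± 17.7 to 721 ± 72.8 (SD, n = 5; difference 1.75, adjusted p = 9.41e-11) and Camk2d from 1030 ± 96.4 to 2119 ± 102 (1.04, adjusted p = 3.82e-09). Of the class IIa deacetylases, which bind Mef2 proteins and repress their targets, Hdac9 rose from 72.6 ± 20.4 to 193 ± 20.2 (1.35, adjusted p = 3.64e-06), and Hdac7 fell from 876 ± 123 to 679.5 ± 35.8 (-0.35, adjusted p = 0.00325). Hdac4 (-0.13, adjusted p = 0.484) and Hdac5 (0.14, adjusted p = 0.317), named after their values were seen, were not called.

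Early B cell genes were listed with Ikaros, Bcl11a and Mef2c in mind, and whether they depend on these factors was not tested. Of 9 tested genes of this list, 6 were called higher, 2 lower and 1 not (66.7% and 22.2%, against 22.7% and 23.3% of all genes), with a median of 0.63. Cd79b, a signalling chain of the B cell receptor, rose from 5978 ± 286 to 13249 ± 820.0 (SD, n = 5; difference 1.15, adjusted p = 9.03e-11), the adaptor Blnk rose by 0.67 (adjusted p = 1.34e-06) and the B cell identity factor Pax5 by 1.12 (adjusted p = 7.88e-06). Cd93, a surface glycoprotein, fell from 1204 ± 130 to 34.4 ± 17.7 (-4.93, adjusted p = 1.26e-11), a difference that ran from -5.23 with a pseudocount of 1 to -3.43 with its probe sets averaged. Vpreb1, Dntt, Rag1 and Rag2, which mark B cell precursors, were too dim to test. The B cell markers given above, some of which this list shares, were higher over the same arrays, and their part was not tested.

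**Figure D4:**
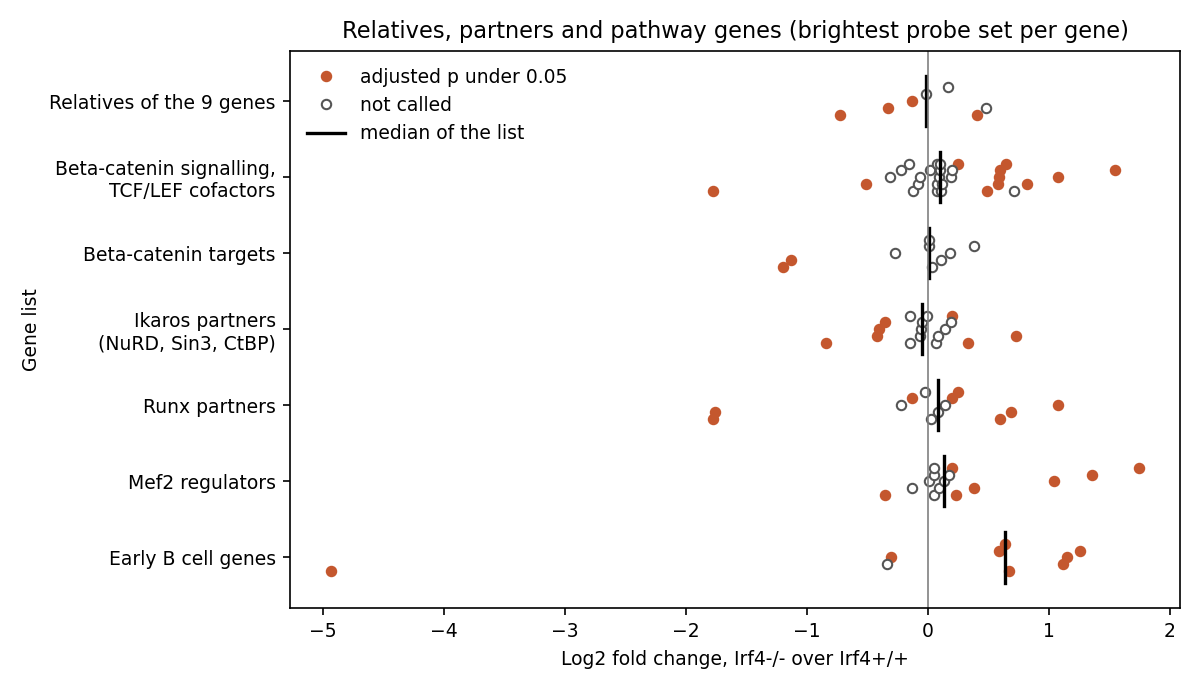
Log2 difference, Irf4-/- minus Irf4+/+, of each tested gene of the 7 lists, by its brightest probe set, with filled dots at an adjusted p under 0.05 and a line at each list's median. Medians run from -0.05 for the partners of Ikaros proteins to 0.63 for the early B cell genes, and the lowest dot is Cd93 at -4.93.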

How the data were processed

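The 10 arrays (5 per genotype) hold 45101 probe sets, 64 of them controls. The values the authors deposited are linear signal intensities from MAS5, as the submitters' processing notes name it, with no version stated in the sources used. The mean after trimming 2% at each end was 250.0 on every array, so no scaling was added. No detection calls were used, and 5 arrays per genotype limit the precision.

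Values were taken as log2(signal + 7.9), a pseudocount equal to the 20th percentile of the table, which understates differences of dim probe sets. Probe sets with a mean under 25.1, the 40th percentile, were left out. A linear model with genotype as its single term was fitted to 27024 probe sets in limma 3.58.1 (lmFit, eBayes with trend) under R 4.3.3, with Benjamini-Hochberg adjustment over all of them. The call threshold was 0.05, and 12652 probe sets had an unadjusted p under 0.05. Gene pairs were tested by exact permutation, two-sided. On simulated data for 27024 probe sets the fit recovered 50% of 50 probe sets changed 1.5-fold, 71% of 100 changed 2-fold and 94% of 50 changed 4-fold, with 8 false calls. No other probe set was changed there, while in the data 5535 were called higher and 5245 lower. The adjustment was therefore stricter in the simulation, and these shares do not give the recovery in the data.

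Symbols came from the platform annotation, updated through RefSeq gene IDs: 34945 probe sets had 1 symbol, 932 several and 9160 are not named here. Named are all probe sets of the 9 genes, Irf4, the family list, up to 4 called genes with the smallest p per other list, and the 3 nearest profiles of Lef1 and Satb1. The genes, lists and alternatives were chosen with earlier results of these data known. Alternatives were other pseudocounts, filters, scalings, variance models, probe-set rules, a replicate block and each array left out. Proteins were not compared.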

Additional observations from a re-analysis of the deposited data

Results flagged for a closer look

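For each of the 34 probe sets the 5 signals of each genotype were examined for an array set apart, where the gap from the lowest or highest array to its neighbour exceeded Dixon's 95% critical share of the group's range. This held for 5 of 68 groups, and chance gives about 1 in 20 (5%). On the Satb1 probe set 1436182_at, Irf4+/+ replicate 5 read 781.7 and the others 922.0 to 975.9. Among the dim Runx1 probe sets, Irf4-/- replicate 2 read 20.3 on 1452531_at against 64.9 to 91.7, Irf4+/+ replicate 3 read 10.7 on 1452530_a_at against 49.7 to 68.7, and Irf4-/- replicate 5 read 10.2 on 1427650_a_at against 41.5 to 60.2. On the Mef2c probe set 1451507_at, Irf4+/+ replicate 3 read 3276.5 and the others 3801.6 to 4013.0.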

How the results depend on the processing

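Over 20 alternatives 8 to 12 probe sets of the 7 genes were called higher, against 12 as reported. When an array was left out it was 10 to 12. The 8 came with shared probe sets left out, a run that tested fewer than 26. It removed 1419406_a_at, 1426552_a_at, 1447335_x_at and 1421028_a_at, which were called in the reported fit, so it is no count of lost calls. With each array centred on its median 1 probe set and 1 gene of the 7 were called lower, both Ikzf5, and the median of all probe sets moved from 0.018 to -0.057. The log2 difference of Lef1 stayed between -3.73 and -3.50 (-3.73 to -3.54 with an array left out), and that of Satb1 between -2.38 and -2.26 (-2.33 to -2.27). With an array left out, Runx3 minus Runx1 ran from -0.40 to -0.25, past the threshold without Irf4+/+ replicate 2 (-0.37) or Irf4-/- replicate 3 (-0.40), both at an exact permutation adjusted p = 0.0423. Ikzf5 minus Ikzf1 ran from -0.26 to -0.15, past it without Irf4+/+ replicate 3 (-0.26, exact permutation adjusted p = 0.0212). The cause was not tested. Same-numbered arrays did not deviate together (r of -0.03 to 0.04 over probe sets, and 1 of 5 numbers correlated best with its own), so the numbers were not taken as pairs. With the replicate number as a block 5472 probe sets were called higher and 5166 lower, 11 of them higher among the 26. With that block Ikzf3 minus Ikzf1 (0.41) and Ikzf5 minus Ikzf3 (-0.61) had an exact permutation p = 0.0625 each, the smallest that 5 pairs can give. Of 1860 further values for single genes and probe sets, 43 lost a call, 7 gained one and 1 that had been called changed sign, Ighm when its probe sets were averaged (-0.10, adjusted p = 0.204). Dim signals leave the size of differences uncertain.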
